A study of Mus musculus with 16 samples.

Results

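The genes that encode RNA polymerase (Pol) I, II and III were examined in mouse mammary tumors with and without a gene trap in *Resf1*. Members were chosen by name. They were all genes whose symbol begins with *Polr1*, *Polr2* or *Polr3* and ends in letters only, together with 15 named initiation factors and regulators of Pol I and Pol III. The rule found 46 of the 23609 genes in the table, 31 by the symbol pattern and 15 by name, and all 46 passed the filter on low values. The Pol I subunit genes *Polr1f*, *Polr1g* and *Polr1h* appear under older symbols in the annotation used here and were counted among the 31.

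All tumors carried MMTV-PyMT, a transgene in which the mouse mammary tumor virus promoter drives the polyoma middle T antigen in the mammary gland and induces mammary tumors. The compared genotypes were wildtype MMTV-PyMT and MMTV-PyMT/Resf1 +/-, and the animals were littermates from a cross of gene trap mice on a C57BL/6 background with FVB/MMTV-PyMT mice. The trap is a lentiviral EGFP/Cre insertion in the first exon of *Resf1*, and heterozygous animals also carry an untrapped allele. The labels describe 16 tumors, 8 per genotype, of which 5 wildtype and 5 gene trap tumors could be matched to columns of values. The labels give no age and do not say whether each tumor came from a different animal, and the p-values therefore measure the spread between tumors.

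Nuclear transcription in mammals is divided among 3 multisubunit RNA polymerases. Pol I transcribes the ribosomal DNA repeats and is recruited by UBTF, the SL1 complex and RRN3. Pol II transcribes protein-coding genes, and Pol III makes tRNAs, 5S rRNA and other short RNAs with the factors TFIIIB and TFIIIC, under repression by MAF1. Each enzyme has its own pair of large catalytic subunits, some small subunits are common to all 3, and an assembly pair is common to Pol I and Pol III. High Pol I and Pol III activity is a known feature of growing tumor cells.

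The values are expression levels per gene, scaled between tumors by the authors with median ratio normalization, and the sequencing depth is unknown. One tumor, gene trap replicate 2, differed from the rest across the whole table. It lay at 91.8 on the first principal component of all tested genes, against -18.6 to -4.78 in the other 9 tumors. Many results are therefore also given without it, and fold changes, intervals and counts that are given once include it. *Resf1* (ENSMUSG00000032712) was at 4215, 4397, 3881, 4487 and 3517 in wildtype and at 4029, 3066, 3686, 3392 and 3409 in gene trap tumors. These ranges overlapped, and the log2 fold change was -0.22 (SE 0.09), with an unadjusted limma p of 0.0313 and an adjusted p of 0.9997. Without gene trap replicate 2 the log2 fold change was -0.17 with an unadjusted limma p of 0.0684. All 6 luminal epithelial markers were present, with summed values of 77839 to 100787 in wildtype and 80744 to 103646 in gene trap tumors.

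The promoters of the polymerase genes were examined for short motifs that many promoters carry. RefSeq windows of 300 bases around annotated start sites (GRCm38.p6) were found for 37 of the 46 genes, in 47 windows. The E-box CACGTG, which MYC with MAX and the USF factors are known to bind, was searched on both strands, which read alike. It was present in 6 of the 47 windows (12.8%) and in 7.84% of 21263 windows of protein-coding genes. The 6 genes belong to Pol I (*Polr1g*), its factor *Rrn3*, the subunits common to all 3 enzymes (*Polr2h*) and Pol III (*Polr3c*, *Polr3e* and *Polr3gl*). Their sites are shown because they are the only ones among these promoters. The E-box is in capitals, and each line is read in the direction of its gene.
Polr1g, chr7:19359446-19359475 (- strand): accccttggatcCACGTGgtgggcagcgtt
Polr1g, chr7:19359684-19359713 (- strand): gttggaagaaacCACGTGagcaaagttgtc
Rrn3, chr16:13780472-13780501 (+ strand): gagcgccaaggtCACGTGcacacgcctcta
Rrn3, chr16:13780639-13780668 (+ strand): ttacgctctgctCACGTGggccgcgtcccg
Polr2h, chr16:20717837-20717866 (+ strand): cttacttttctcCACGTGagggggtgcgcg
Polr3c, chr3:96727659-96727688 (- strand): gcccgcaagggtCACGTGagtccgcccggc
Polr3e, chr7:120917771-120917800 (+ strand): ccccgctcccccCACGTGtccggcggagtt
Polr3gl, chr3:96594358-96594387 (- strand): ttctggctccgcCACGTGtctggatgagct

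Other short motifs were searched on both strands in the same windows. The GC box GGGCGG was found in 57.4% of the polymerase windows against 46.2% of coding windows. The motif TATAAA was found in 4.26% against 12.6%, in the windows of *Polr2a* and *Polr2c*. These are matches of letters and were not examined for binding. For the 6 genes with an E-box the log2 fold changes in gene trap tumors were 0.15 for *Polr1g*, 0.08 for *Rrn3* and *Polr2h*, 0.06 for *Polr3c*, 0.12 for *Polr3e* and 0.07 for *Polr3gl*, each with an unadjusted limma p above 0.05. Without gene trap replicate 2 they were 0.05 for *Polr1g*, 0.08 for *Rrn3*, -0.00 for *Polr2h*, 0.04 for *Polr3c*, 0.14 for *Polr3e* and -0.04 for *Polr3gl*.

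The first question was whether a reduced dose of *Resf1* went with a change in the polymerase genes. None of the 46 genes passed an adjusted p of 0.05 in limma's test, and the share over all 21034 tested genes was 0%. At an unadjusted p under 0.05 there were also 0 of 46, against 2.28% of all tested genes (479 genes). The smallest unadjusted p was 0.104, for *Polr1b*. In these bulk tumors fewer cells of a type and less RNA per cell cannot be told apart.

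The direction leaned toward gene trap tumors. Of the 46 genes, 36 were higher and 10 lower there, and the median log2 fold change was 0.07, while 51.4% of all tested genes were higher, with a median of 0.00. Without gene trap replicate 2, 26 of 46 were higher, with a median of 0.01, against 50.1% of all genes. In no gene did the 5 wildtype values separate fully from the 5 gene trap values, which was the case for 0.528% of all tested genes.

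**Figure D1:**
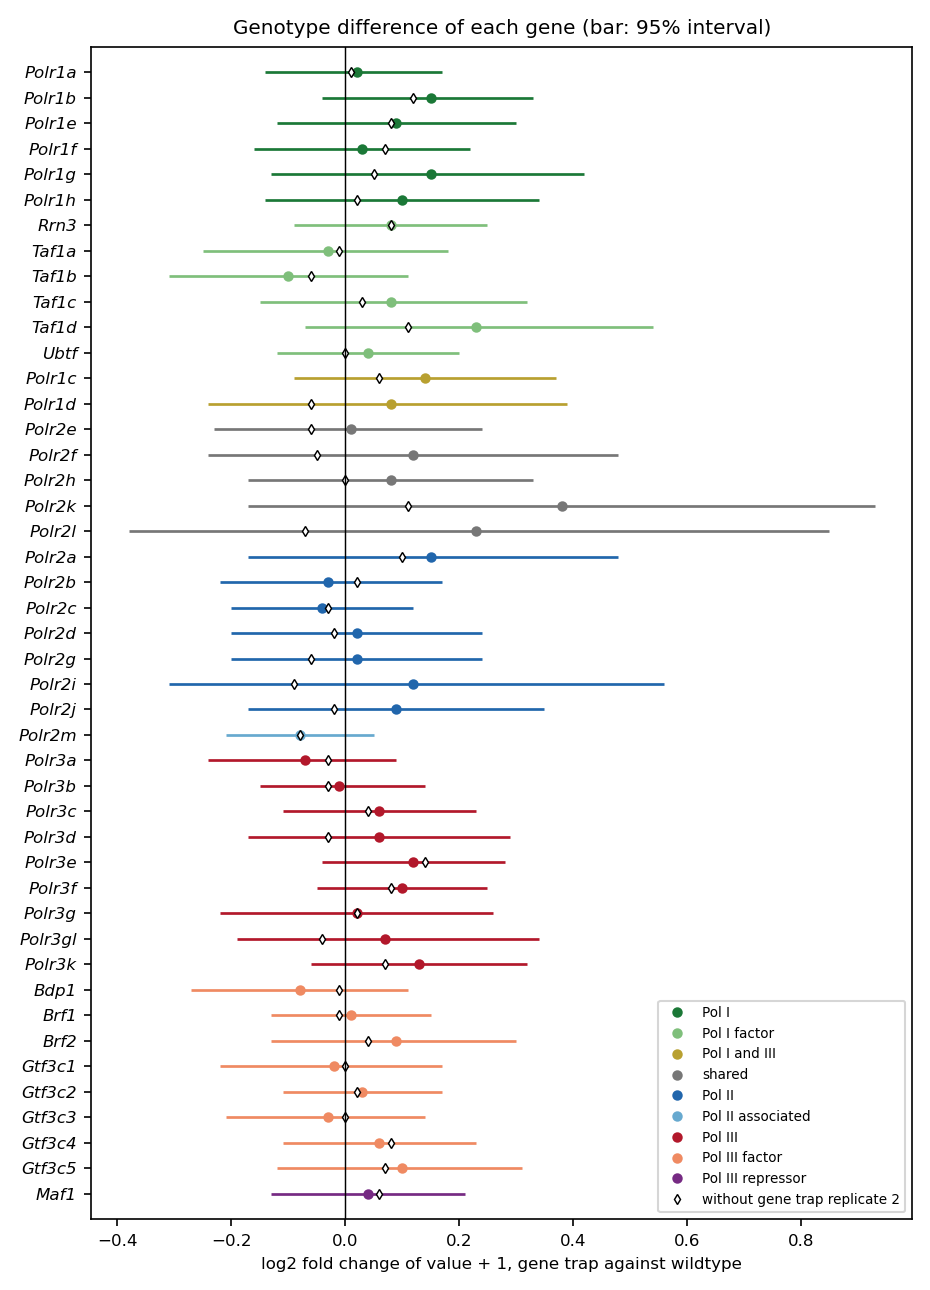
Log2 fold change (value + 1) of 45 of the 46 genes in gene trap against wildtype tumors (5 each), with limma's 95% interval as a bar, colored by enzyme, and open diamonds for the fold change without gene trap replicate 2. All bars cross 0, the widest are those of *Polr2k* and *Polr2l*, and the median of the 46 genes moves from 0.07 to 0.01 without gene trap replicate 2.

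The intervals of these comparisons were narrow. The 95% interval of the fold change lay within 1.5-fold in either direction for 44 of 46 genes (95.7%). The same was true of 84.5% of the 13682 tested genes with a mean in the same range and of 61.2% of all tested genes. The exceptions were *Polr2k*, with an interval of 0.888 to 1.90 fold, and *Polr2l*, with 0.768 to 1.80 fold, which are small subunits common to all 3 enzymes. For the other 44 genes a change of 1.5-fold or more lay outside the interval. Smaller changes were not excluded, since intervals reached 1.26 fold for *Polr1b*, 1.39 for *Polr2a* and 1.45 for *Taf1d*. The levels were also steady among wildtype tumors, with a median coefficient of variation of 7.05%, from 3.05% for *Polr2g* to 19.7% for *Polr2l*, against 10.3% for genes in the same range. In gene trap tumors the median coefficient of variation was 11.4%, and 8.16% without replicate 2. For genes in the same range these values were 12.9% and 9.84%.

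Among the Pol I genes, the catalytic center is formed by the products of *Polr1a* and *Polr1b*. *Polr1a* was at 2382, 2310, 2282, 2294 and 2107 in wildtype tumors and at 2406, 2332, 2335, 2463 and 1988 in gene trap tumors. Gene trap replicate 5 was the lowest of all tumors and the other 4 gene trap tumors lay above 4 of 5 wildtype tumors, so the groups overlapped. Over all tumors the log2 fold change was 0.02 (SE 0.07), with an interval of 0.907 to 1.13 fold.

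*Polr1b* had the smallest p of all members. It was at 1278, 1251, 1294, 1148 and 1349 in wildtype tumors and at 1364, 1522, 1365, 1568 and 1204 in gene trap tumors. Gene trap replicates 1 to 4 lay above the highest wildtype tumor and replicate 5 lay inside the wildtype range. The means were 1264 ± 73.8 and 1405 ± 145 (SD, n = 5 each), and the log2 fold change was 0.15 (SE 0.08), with an interval of 0.976 to 1.26 fold. When gene trap replicate 5 was left out, the log2 fold change became 0.20 and the unadjusted limma p 0.0274, which made *Polr1b* the only member past 0.05 in any setting tried. Without gene trap replicate 2 the log2 fold change was 0.12.

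All 6 subunit genes particular to Pol I were higher in gene trap tumors, with log2 fold changes of 0.02 to 0.15 and a median of 0.10, and 0 passed the test. All 6 were also higher without gene trap replicate 2, with a median of 0.06. This did not hold for every tumor left out. *Polr1a*, at 0.02 (SE 0.07) with all tumors, then ranged from -0.01 to 0.07. *Polr1g*, which encodes a subunit that pairs with that of *Polr1e*, was the highest of the group together with *Polr1b*, with a log2 fold change of 0.15 (SE 0.13), a rank that rested on gene trap replicate 2, since it was 0.05 without that tumor. By tumor, the median deviation of the 6 genes from the wildtype mean was 0.07, 0.19, 0.06, 0.15 and 0.03 (log2) in gene trap replicates 1 to 5, and it lay between -0.06 and 0.05 in wildtype tumors. In each gene trap tumor this median lay above that of at least 4 of 5 wildtype tumors.

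The Pol I factors gave a mixed picture. *Ubtf*, the architectural factor of active ribosomal DNA, was at 4294, 4963, 4560, 4593 and 4350 in wildtype tumors and at 4381, 5288, 4342, 4650 and 4830 in gene trap tumors. Its highest value was that of gene trap replicate 2. With all tumors the log2 fold change was 0.04 (SE 0.07), and it was 0.00 without replicate 2.

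*Rrn3*, which links initiation-competent Pol I to the promoter, was at 2020, 2328, 2153, 1884 and 1817 in wildtype tumors and at 2055, 2149, 2045, 2251 and 2240 in gene trap tumors. Wildtype tumors held both its highest and its lowest value, and the log2 fold change was 0.08 (SE 0.08). The subunits of SL1, the promoter selectivity complex, spanned the whole range of the group, from -0.10 for *Taf1b* to 0.23 (SE 0.14) for *Taf1d*, and these values were -0.06 and 0.11 without gene trap replicate 2. Of the 6 Pol I factors, 4 were higher and 2 lower, and their median log2 fold change was 0.06, and 0.02 without gene trap replicate 2. *Taf1d* is an uncertain measurement of its messenger RNA. It holds 8 small nucleolar RNA genes on the same strand, wildtype tumors had a mean of 21596 ± 2517 (SD, n = 5), and its value per kilobase of transcript, 20610, was the highest of all 46 genes, against 986 for *Ubtf*. How reads of the nested RNAs were counted is not given in the sources used here.

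**Figure D2:**
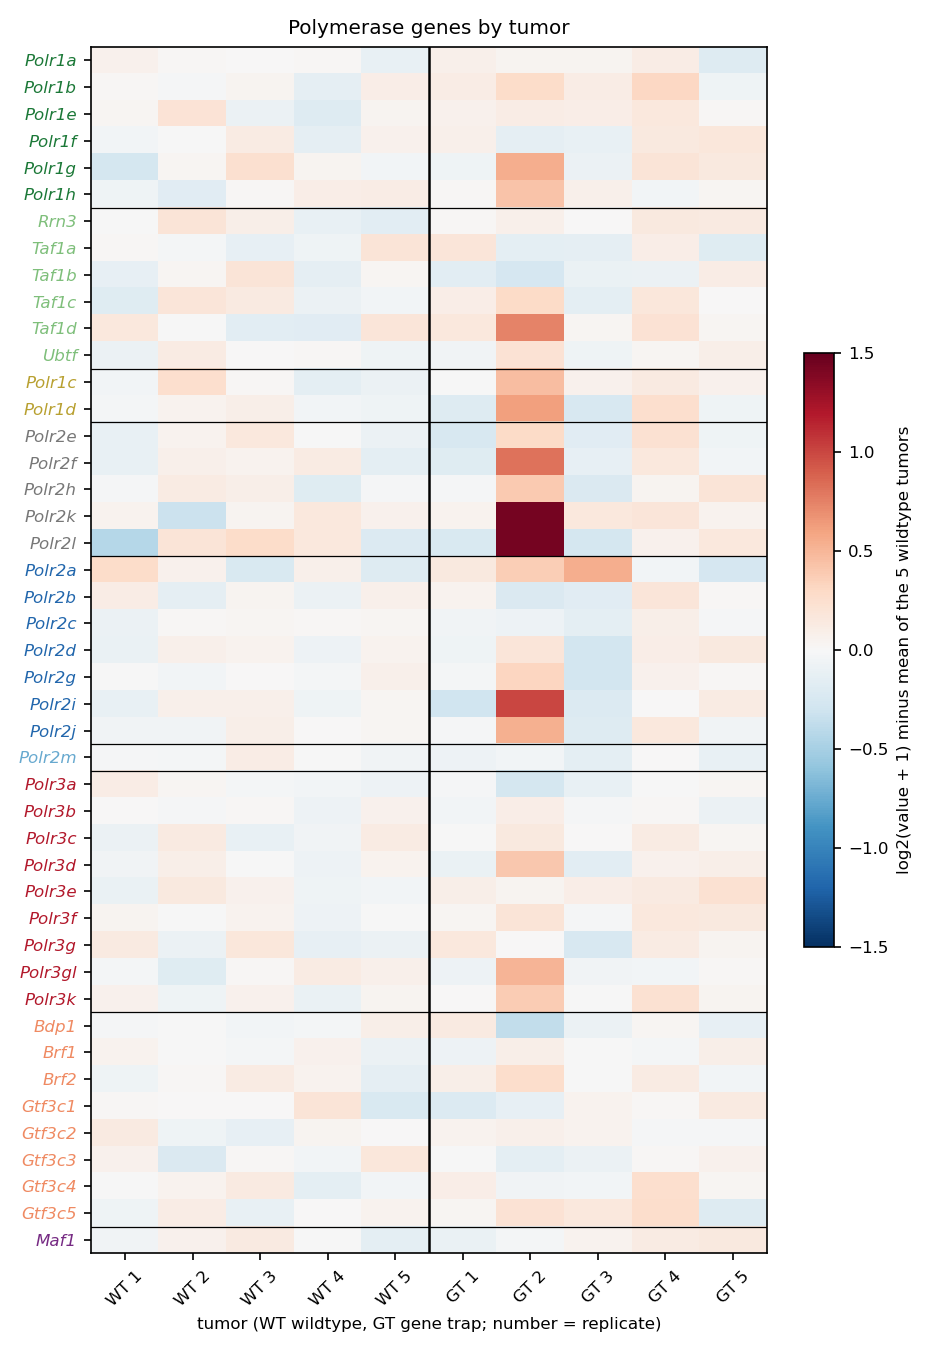
Deviation of 45 of the 46 genes (rows, grouped by enzyme and colored as groups) from the mean of the 5 wildtype tumors, in log2(value + 1), for each tumor (columns). Most cells are pale, and the strongest color is in gene trap replicate 2, at *Polr2k*, *Polr2l*, *Polr2i* and *Polr2f*.

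The Pol II genes showed no common direction. *Polr2a*, whose product carries the C-terminal repeat domain that is phosphorylated during transcription, was at 2481, 2144, 1746, 2147 and 1787 in wildtype tumors and at 2259, 2644, 2977, 1990 and 1720 in gene trap tumors. It had the widest spread among the large catalytic subunits, with coefficients of variation of 14.7% and 21.7%, and gene trap tumors held both its highest and its lowest value. Its log2 fold change was 0.15 (SE 0.15), with an interval of 0.891 to 1.39 fold.

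*Polr2b*, the second largest subunit, was at 3507, 2943, 3337, 3045 and 3414 in wildtype tumors and at 3375, 2779, 2872, 3667 and 3291 in gene trap tumors. The order of the tumors differed from that of *Polr2a*, with gene trap replicates 2 and 3 lowest for *Polr2b* and highest for *Polr2a*. For *Polr2b* the log2 fold change was -0.03 (SE 0.09), and 0.02 without gene trap replicate 2. Of the 7 genes particular to Pol II, 5 were higher and 2 lower, from -0.04 for *Polr2c* to 0.15 for *Polr2a*, with a median of 0.02. Without gene trap replicate 2, 2 of 7 were higher and the median was -0.02. The range was then -0.09 for *Polr2i*, which was at 0.12 with all tumors, to 0.10 for *Polr2a*. *Polr2m*, which encodes a protein that binds Pol II and is not a core subunit, had a log2 fold change of -0.08 (SE 0.06) with and without that tumor.

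The subunits common to all 3 enzymes had the highest median change of the groups, and it rested on gene trap replicate 2. All 5 were higher in gene trap tumors, with log2 fold changes of 0.01 for *Polr2e* to 0.38 (SE 0.25) for *Polr2k* and a median of 0.12. Without that tumor 1 of 5 was higher and the median was -0.05. *Polr2k* was at 97.3, 74.9, 96.2, 105 and 97.6 in wildtype tumors and at 97.4, 254, 105, 106 and 97.1 in gene trap tumors. Apart from gene trap replicate 2, the gene trap tumors lay between 97.1 and 106, inside or just above the wildtype range. The assembly subunits common to Pol I and Pol III followed the same pattern. *Polr1c* and *Polr1d* had log2 fold changes of 0.14 and 0.08 with all tumors, and of 0.06 and -0.06 without gene trap replicate 2.

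Among the Pol III genes, *Polr3a*, the largest subunit, was at 1299, 1222, 1174, 1168 and 1142 in wildtype tumors and at 1185, 1002, 1107, 1197 and 1222 in gene trap tumors. Gene trap replicate 2 was the lowest and the groups overlapped. Its log2 fold change was -0.07 (SE 0.08), the lowest of the Pol III subunits. Without gene trap replicate 2 it was -0.03, and *Polr3gl* was the lowest at -0.04.

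*Polr3b*, the second largest subunit, was at 1217, 1194, 1224, 1146 and 1266 in wildtype tumors and at 1172, 1297, 1198, 1227 and 1136 in gene trap tumors. It was among the steadiest members, with coefficients of variation of 3.64% and 5.03%, and its log2 fold change was -0.01 (SE 0.06), with an interval of 0.904 to 1.10 fold. Of the 10 subunit genes particular to Pol III, 8 were higher and 2 lower, up to 0.13 for *Polr3k* (SE 0.09), with a median of 0.07. Without gene trap replicate 2, 6 of 10 were higher and the median was 0.03. *Polr3k* was then at 0.07, and *Polr3e* was the highest at 0.14.

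Pol III exists in versions that differ in a subunit of the initiation subcomplex, encoded by *Polr3g* or *Polr3gl*. *Polr3g* is known from stem cells and tumor cells, and *Polr3gl* is widely expressed. *Polr3g* was at 341, 293, 349, 285 and 292 in wildtype tumors and at 348, 313, 263, 339 and 320 in gene trap tumors. *Polr3gl* was at 429, 385, 441, 476 and 460 in wildtype tumors and at 415, 621, 422, 425 and 444 in gene trap tumors. Per kilobase of transcript *Polr3gl* was the higher of the pair in 10 of 10 tumors, with a mean ratio of *Polr3g* to *Polr3gl* of 0.33, and its highest value was in gene trap replicate 2.

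Within a tumor, the ratio of the *Polr3g* value to the *Polr3gl* value, not scaled by length, was 0.795, 0.762, 0.79, 0.599 and 0.635 in wildtype tumors and 0.838, 0.504, 0.624, 0.797 and 0.72 in gene trap tumors. The gene trap tumors held both the highest and the lowest ratio. The log2 difference was -0.05, and 0.06 without gene trap replicate 2, smaller than the spread within either group (exact two-sided permutation test of the 10 tumors, p = 0.754, where the smallest possible p is 0.00794).

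TFIIIB contains BRF1 at tRNA and 5S genes and BRF2 at genes with external promoters such as U6. *Brf1* was at 1848, 1769, 1735, 1863 and 1665 in wildtype tumors and at 1682, 1880, 1766, 1743 and 1882 in gene trap tumors. *Brf2* was at 298, 316, 338, 323 and 283 in wildtype tumors and at 331, 373, 310, 339 and 302 in gene trap tumors. Both ranges overlapped between the genotypes, and the log2 fold changes were 0.01 (SE 0.06) and 0.09 (SE 0.10). The ratio of *Brf1* to *Brf2* was 5.71 ± 0.39 in wildtype and 5.44 ± 0.52 in gene trap tumors (SD, n = 5 each, exact two-sided permutation test, p = 0.317), and per kilobase of transcript its mean over all tumors was 4.05.

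*Maf1*, which encodes the repressor of Pol III, was at 1428, 1558, 1636, 1478 and 1344 in wildtype tumors and at 1391, 1450, 1545, 1621 and 1641 in gene trap tumors. Gene trap replicate 5 was the highest by 5 units and the groups overlapped. For *Maf1* the log2 fold change was 0.04 (SE 0.08), with an interval of 0.915 to 1.15 fold. The 8 subunits of TFIIIB and TFIIIC, which binds the internal promoters of Pol III genes, had log2 fold changes from -0.08 for *Bdp1* to 0.10 for *Gtf3c5*, with 5 higher, 3 lower and a median of 0.02. Without gene trap replicate 2, 5 were higher and the median was 0.01. *Bdp1* was then at -0.01, *Gtf3c5* was at 0.07, and *Gtf3c4* was the highest at 0.08. By tumor the median deviation of the 8 genes from the wildtype mean lay between -0.02 and 0.04 in all 10 tumors, gene trap replicate 2 included, where it was 0.01.

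Gene trap replicate 2 was the highest tumor for 24 of the 46 genes and the lowest for 4. Over all tested genes it was the highest for 22.4% and the lowest for 21.8%. Each of the other 9 tumors was the highest for 1 to 6 members. In this tumor 6 genes were more than 1.5-fold above the median of the other 9, and in each of the other tumors there were 0. They were *Polr2k* at 2.60 fold, *Polr2l* at 2.58, *Polr2i* at 1.99, *Polr2f* at 1.82, *Taf1d* at 1.63 and *Polr1d* at 1.58, named here after their values were seen. The lowest was *Bdp1* at 0.784 fold. The share of all tested genes more than 1.5-fold up in this tumor is not given here, so the count of 6 cannot be set against it.

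These deviations moved with transcript length. All 7 members with a longest coding transcript under 1000 bases were above the median of the other tumors, by 0.34 to 1.37 (log2), with a median of 0.54. Of the 20 members from 1000 to just under 3000 bases 16 were above it, with a median of 0.29. Of the 19 members of 3000 bases and over 9 were above it, with a median of -0.03. Across the 46 genes, which share this library, Spearman's rho of deviation with length was -0.68, and in the other tumors it lay between -0.18 and 0.41.

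The pattern was not particular to the polymerase genes. The 800 protein-coding genes under 1000 bases had a median deviation of 0.50 in this tumor, the 6074 genes from 1000 to just under 3000 bases 0.10, and the 7636 longer genes -0.04. The catalytic subunits are long and the common subunits are short, and the median deviations from the other 9 tumors were 0.86 for the common subunits, 0.30 for Pol II and 0.15 for both Pol I and Pol III. The part that length played in these values was not tested.

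**Figure D3:**
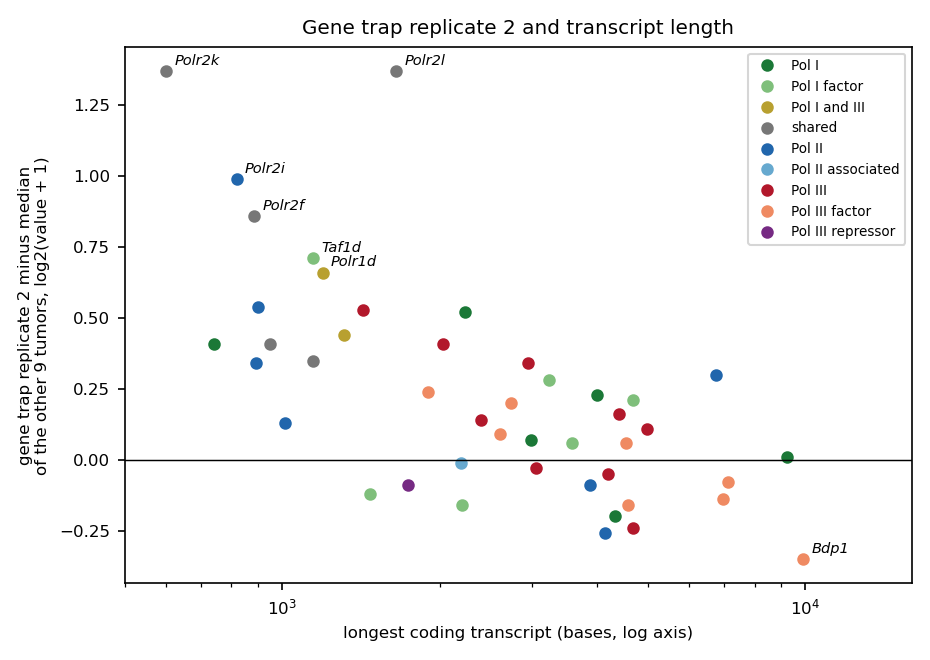
Log2 deviation of gene trap replicate 2 from the median of the other 9 tumors for 45 of the 46 genes (points, colored by group), against the length of its longest coding transcript in bases (log axis). Points fall from 1.37 for *Polr2k* and *Polr2l* to -0.35 for *Bdp1*, which has the longest transcript.

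The second question was how the levels of the 3 enzymes compare. Levels of different genes were compared as normalized value per kilobase of the longest coding transcript, and the median over the subunits particular to each enzyme was taken in each tumor. In wildtype tumors this median level was 756 ± 43.3 for Pol II, 301 ± 10.8 for Pol III and 281 ± 8.01 for Pol I (SD, n = 5). In gene trap tumors it was 714 ± 73.2, 321 ± 32.5 and 304 ± 21.6. Pol II was the highest in 10 of 10 tumors, at 2.12 to 2.91 times the level of Pol I and 1.79 to 2.61 times that of Pol III. Pol I and Pol III lay close together, with a ratio of Pol I to Pol III of 0.901 to 0.996 in wildtype tumors and 0.845 to 1.05 in gene trap tumors, where Pol I was the higher in 3 of 5.

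The order of Pol I and Pol III depended on how levels were summarized. Pol II was followed by Pol III and then Pol I in 70% of tumors with medians over subunits and in 10% with means over subunits, where Pol II was followed by Pol I in the most tumors. With the median length of a gene's coding transcripts in place of the longest, Pol III exceeded Pol I in 100% of tumors. Pol II remained first under each of these choices, all of which divide by transcript length. Before scaling by length the middle of the wildtype means was 984 for Pol II. It lay between 939 and 1264 for Pol I and between 899 and 1201 for Pol III. Without that scaling Pol II thus did not stand out.

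Within an enzyme the genes were not expressed at equal levels. Over all 10 tumors the mean level per kilobase ranged from 120 for *Polr1e* to 672 for *Polr1g* in Pol I, a ratio of 5.62. In Pol II it ranged from 181 for *Polr2c* to 1149 for *Polr2g*, a ratio of 6.35, and in Pol III from 103 for *Polr3g* to 629 for *Polr3k*, a ratio of 6.11. The common subunits spanned 188 for *Polr2k* to 1915 for *Polr2e*, a ratio of 10.2. The spread among subunits of one enzyme was thus wider than the distance between the enzymes.

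**Figure D4:**
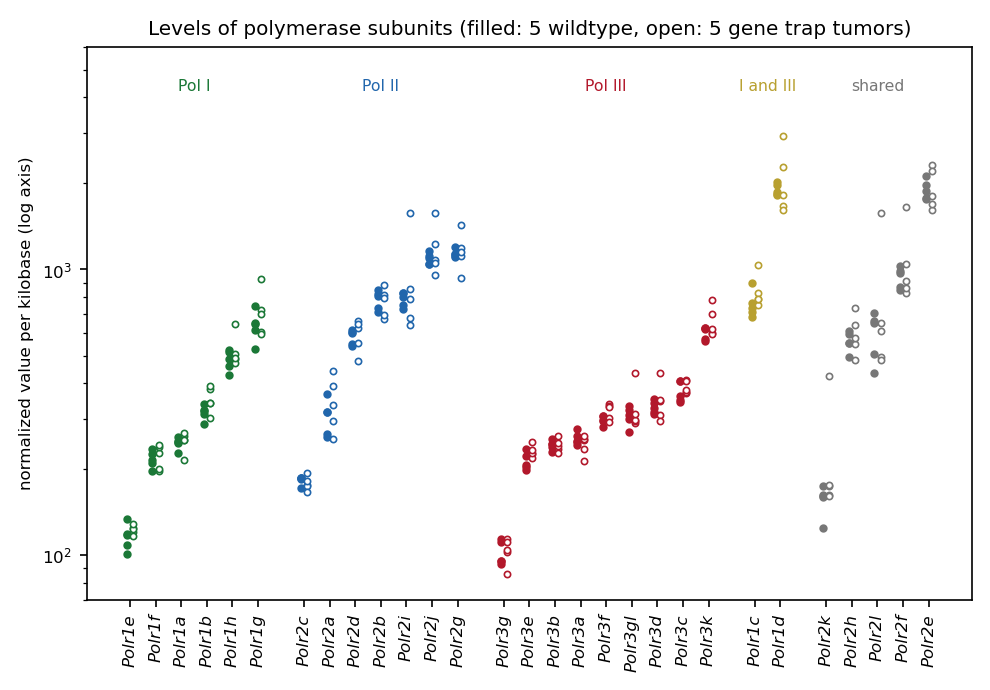
Normalized value per kilobase of the longest coding transcript (log axis) for the polymerase subunit genes shown, ordered by level within its group, with filled points for the 5 wildtype and open points for the 5 gene trap tumors. Most subunits particular to Pol II lie above those of Pol I and Pol III, and the subunits of an enzyme span 5.62 to 6.35 times.

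Subunits that occupy corresponding places in the 3 enzymes were also compared, a comparison added after values had been seen. At the second largest subunit the order was *Polr2b*, *Polr1b* and *Polr3b* in 10 of 10 tumors, with wildtype levels per kilobase of 784 ± 58.7, 316 ± 18.5 and 243 ± 8.86 (SD, n = 5). At the zinc ribbon subunit it was *Polr2i*, *Polr3k* and *Polr1h* in 10 of 10. That order rests on the annotated transcript lengths, which were 819, 2948 and 742 bases. Before scaling by length the wildtype means of these genes were 644, 1768 and 358, with *Polr3k* the highest. Per kilobase the largest subunits differed much less. *Polr2a* was at 306 ± 44.8, *Polr3a* at 256 ± 13.3 and *Polr1a* at 247 per kilobase in wildtype tumors, *Polr2a* was first in 9 of 10 tumors, and *Polr1a* and *Polr3a* changed places between tumors.

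Other genes of the same pathways were read from lists written for this comparison. Of 34 genes for general Pol II factors, the snRNA activating complex, other Pol III proteins, polymerase assembly factors and the Pol I termination factor, 24 were higher and 10 lower, and the median log2 fold change was 0.03, with a range of -0.13 to 0.29. These counts were not repeated without gene trap replicate 2. Without it the highest gene, *Snapc5*, fell from 0.29 to 0.05, and the lowest, *Gpn2*, moved from -0.13 to -0.07. No gene of these lists passed an adjusted p of 0.05, and 1 of 34 had an unadjusted p under 0.05, near the 2.28% of all tested genes. It was *Tbp*, the TATA-binding protein that serves all 3 polymerases, with a log2 fold change of 0.16 (SE 0.07), an unadjusted limma p of 0.0327 and overlapping groups. Without gene trap replicate 2 the log2 fold change of *Tbp* was 0.15.

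Of 8 listed transcripts that Pol III makes, 2 were in the table, *Rpph1*, the RNA of RNase P, and *Rmrp*, the RNA of RNase MRP. *Rpph1* was at 208265, 419896, 245250, 404661 and 107397 in wildtype tumors and at 101765, 923522, 193285, 291003 and 282069 in gene trap tumors. Gene trap replicate 2 had the highest value of all tumors, the wildtype values themselves spread widely, and the log2 fold change was 0.14 (SE 0.53), and -0.31 without that tumor. *Rmrp* stood under 2 identifiers that moved together, so its value is uncertain, and their log2 fold changes were 0.40 and 0.41, and -0.20 and -0.21 without gene trap replicate 2. The sum of the 3 entries was 172568 to 604646 in wildtype tumors, 156376 to 419037 in 4 of the gene trap tumors and 1695484 in gene trap replicate 2.

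Markers of the cell types that a tumor can hold were compared beside these values. No marker of any list had an unadjusted p under 0.05. The 4 basal epithelial markers were all lower in gene trap tumors. Their median log2 fold change was -0.31, with a smallest unadjusted limma p of 0.0505 and summed values of 4945 to 7046 in wildtype and 4050 to 5672 in gene trap tumors. The median was 0.03 for luminal epithelium, 0.15 for fibroblasts, -0.13 for endothelium, -0.11 for macrophages, -0.26 for the T cell genes *Cd3e* and *Cd8a*, -0.56 for adipocytes and 0.05 for skeletal muscle. The last 3 medians rest on 2 genes each, whose SEs were 0.46 to 0.60. *Cd3e* was also low, at 3.68 to 32.5 over the tumors. The 4 proliferation genes had a median of -0.03, with summed values of 21782 to 35281 in wildtype tumors, 23550 to 34049 in the remaining gene trap tumors and 21311 in gene trap replicate 2, the lowest of all tumors. The part of cell composition in the polymerase values was not tested.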

How the data were processed

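Total RNA of mammary tumors was sequenced from stranded libraries. The authors deposited a signal per gene, estimated counts normalized by the median ratio method, and the submitters' processing notes name Partek, STAR (2.7.8a), DESeq2 and mm39. The gene counter and annotation are not given in the sources used here. Scaling factors recomputed from the columns were 1.005 to 1.006, and the column totals were 31995078 to 42153593. Whole counts could not be recovered, and the depth is unknown. Of 16 columns, 10 matched a sample by name and 6 were not used.

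Genes with a mean of at least 10 (21034) were tested on log2(value + 1) with limma (3.58.1, R 4.3.3), two-sided, with a variance trend and Benjamini-Hochberg adjustment. Fold changes refer to value + 1 and are too small for genes with low values. Ratios were tested by exact permutation. The calculations were tested on simulated data. Symbols, transcript lengths and overlaps came from GENCODE M21 and promoters from RefSeq, both of an older build than the values, so no gene coordinates of the former are given. In M21, 14 members share bases with a coding gene on the other strand and 6 with a gene on the same strand.

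The members and lists were chosen with earlier results of these data known. Named with each tumor's value are *Resf1*, the large catalytic subunits, *Ubtf*, *Rrn3*, *Polr3g*, *Polr3gl*, *Brf1*, *Brf2* and *Maf1*, and any member with an unadjusted p under 0.05. Others are named as the highest or lowest of a group. *Polr2k* and *Tbp*, the genes named for gene trap replicate 2 or an E-box, and those at corresponding places were singled out after their values were seen. The same holds for *Snapc5*, *Gpn2*, *Rmrp* and *Rpph1*, from lists planned as counts only. Same-numbered tumors are of different genotype and no label pairs them. Alternatives were other pseudocounts and filters, quantile normalization, no trend, weights per tumor, a block for the replicate number, leaving out each tumor, other summaries of levels, and leaving out the 3 genes under older symbols, the last chosen after seeing the data. One member counts in the totals and group medians but is not reported singly here. Figures were drawn with matplotlib (3.10.9, Python 3.11.15).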

Additional observations from a re-analysis of the deposited data

Results flagged for a closer look

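The 104 groups of 5 tumors examined came from *Resf1*, the 46 genes, the 2 ratios and the median level of each enzyme. A tumor lay far from the other 4 in 12 groups (11.5%), where chance gives about 1 in 20 for a single group. The groups reuse the same tumors and are not independent. The share over all tested genes under this rule is not given here, so the excess cannot be called particular to these genes. Of the 12 groups, 8 were flagged for gene trap replicate 2, always on the high side, and no explanation was weighed. They were *Polr2k* at 254, with 97.1 to 106 for the rest of its group, *Polr2l* at 2596 against 799 to 1073, *Polr2i* at 1291 against 522 to 701, *Polr2f* at 1459 against 735 to 926, *Polr1h* at 480 against 348 to 377, *Polr1c* at 1364 against 985 to 1086, *Polr3gl* at 621 against 415 to 444, and *Taf1d* at 35887 against 21896 to 24963.

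The other 4 were spread over different tumors. In gene trap replicate 5 the value of *Polr1a* was 1988, while its group otherwise lay between 2332 and 2463. Among wildtype tumors, *Polr2c* was at 670 in replicate 1, against 718 to 726, *Polr2k* was at 74.9 in replicate 2, against 96.2 to 105, and *Bdp1* was at 3928 in replicate 5, against 3609 to 3691.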

How the results depend on the processing

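Under every setting 0 genes passed an adjusted p of 0.05, and 308 to 692 genes had an unadjusted p under 0.05. Members under that threshold numbered 0, except for 1 (*Polr1b*) without gene trap replicate 5, a range of 0 to 1 over the tumors left out. Leaving out each tumor gave medians of 0.06 to 0.12 for Pol I, -0.02 to 0.09 for Pol II, 0.03 to 0.11 for Pol III, 0.00 to 0.16 for the subunits of Pol I and III, -0.05 to 0.20 for the common subunits, 0.02 to 0.10 for Pol I factors and 0.00 to 0.04 for Pol III factors, and log2 differences of -0.12 to 0.06 for the *Polr3g* to *Polr3gl* ratio, which was 0.06 without gene trap replicate 2, and -0.12 to -0.04 for the *Brf1* to *Brf2* ratio. The median changed sign for Pol II (-0.02) and the common subunits (-0.05) without gene trap replicate 2, and with weights per tumor (-0.03 for both). Of 455 recomputed values 21 single-gene fold changes or ratios changed sign, 0 of them with a p under 0.05. They were *Polr3gl* (-0.02) and *Brf1* (-0.00) with weights per tumor, and otherwise values with a tumor left out, which ranged from -0.01 to 0.07 for *Polr1a*, -0.08 to 0.02 for *Polr2b*, -0.03 to 0.02 for *Polr3b*, -0.02 to 0.08 for *Polr3g*, -0.04 to 0.11 for *Polr3gl* and -0.01 to 0.03 for *Brf1*. The order Pol II, Pol III, Pol I held in 70% of tumors, 66.7% to 77.8% with a tumor left out, 100% with median transcript lengths, 10% with means over subunits and 100% without the 3 genes under older symbols, an alternative added after seeing the data. *Resf1* no longer had an unadjusted p under 0.05 in 8 settings. The causes were not tested. Same-numbered tumors had correlations of -0.16 to 0.15. These values show no pairing by number, but they cannot exclude it. With the replicate number as a block, 426 genes and 0 members had an unadjusted p under 0.05, and the exact p was 0.812 for *Polr3g* to *Polr3gl* and 0.375 for *Brf1* to *Brf2*.

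The depth of the tumors is unknown, 6 columns were not used, and with 5 tumors per genotype the interval lay within 1.5-fold for 61.2% of tested genes. Transcript lengths follow one annotation, and levels per kilobase depend on it.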
